A study of Mus musculus with 12 samples.

Results

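The data describe the messenger RNAs of the cytosolic ribosomal proteins in C2C12 myotubes, the multinucleate muscle fibres that form when this mouse myoblast line is deprived of growth serum. A gene was taken when its Ensembl identifier was annotated in GENCODE (build GRCm38) as protein coding under a symbol of the Rpl, Rps, Rplp or Rpsa series. The rule uses annotation and no measured value, and pseudogenes were left out. The rule found 83 genes of the 55487 listed in the count table, and 81 of them passed the filter on low counts, as did 14175 genes in all. The muscle-restricted paralog Rpl3l was set apart, which left 80 genes for descriptions of the ribosome as a whole.

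All myotubes were differentiated for 5 days in medium with 2% horse serum. In the control group (6 libraries, numbered 1 to 6) the medium was then changed to 4% horse serum for 24 h. In the STEM group (6 libraries, numbered 7 to 12) it was changed to 4% STEM, a cell-free product secreted by partially differentiated human pluripotent stem cells, with no horse serum, so that the addition of STEM and the removal of serum cannot be told apart. The labels name 1 cell line and do not say which libraries came from separate cultures, and p-values therefore measure the spread between these samples.

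Each cytosolic ribosome is built from a small (40S) subunit, which reads the messenger RNA, and a large (60S) subunit, which joins amino acids. With few exceptions every ribosome carries one copy of each ribosomal protein, and cells keep the messages of these proteins in balance. Vertebrate ribosomal protein messages typically begin with a C followed by a run of C and T (U in the RNA), the 5′ terminal oligopyrimidine or TOP motif. Through this motif the protein LARP1 and the growth kinase mTORC1 control how much of the message is translated, a control that need not change the amount of message. In muscle, ribosome supply is one of the limits on growth of the fibre. The libraries measured the amount of message and not its translation.

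Runs of C and T near the start of transcription were looked for in the reference sequence. The search did not require a run to begin at the start, so it does not show a TOP motif. RefSeq gave a promoter, with 250 bases before and 50 bases after the start of transcription (build GRCm38.p6), for 63 of the 83 genes, with some genes listed at several starts. Leaving out Rpl3l and the 2 untested paralogs, 71 such promoters were searched. A run of at least 8 C or T letters on the transcribed gene's own strand, within 40 bases of the start, was found in 71.8% of them, against 29.3% of all 32851 mouse promoters. On either strand, GGGCGG was found in 62% against 35.7%, CCGGAAGT in 16.9% against 3.89% and AAGATGGCG in 8.45% against 1.4%. The TATA element TATAAA was found in 9.86% against 13.6%. These are letter matches and were not tested as sites. The windows below run from 40 bases before to 20 bases from the start onward, 5′ to 3′ on the gene's strand. The longest run of C and T is in capitals, and where runs were equally long, as in Rpl36al and Rps27l, the first is marked. For each gene the start listed with the longest run was used. The windows show 4 genes that were lower with STEM (Rpl22, Rpl35a, Rpl36a and Rpl39) and 2 paralogs whose share moved the other way (Rpl36al and Rps27l). Rps6, which did not pass the test, is shown as well. Rpl32, also lower with STEM, had no promoter in this reference and is not shown.
Rpl22 (chr4:152325686-152325745, plus strand): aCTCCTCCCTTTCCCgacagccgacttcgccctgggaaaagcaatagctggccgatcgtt
Rpl35a (chr16:33056442-33056501, plus strand): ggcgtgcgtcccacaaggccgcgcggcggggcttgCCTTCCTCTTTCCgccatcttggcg
Rpl36a (chrX:134585614-134585673, plus strand): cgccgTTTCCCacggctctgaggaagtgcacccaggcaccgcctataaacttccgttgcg
Rpl39 (chrX:37085203-37085262, minus strand): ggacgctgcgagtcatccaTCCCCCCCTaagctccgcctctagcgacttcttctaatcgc
Rpl36al (chr12:69184048-69184107, minus strand): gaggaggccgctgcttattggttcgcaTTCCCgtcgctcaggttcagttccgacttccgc
Rps27l (chr9:66946046-66946105, plus strand): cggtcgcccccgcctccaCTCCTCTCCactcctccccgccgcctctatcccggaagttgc
Rps6 (chr4:86857348-86857407, minus strand): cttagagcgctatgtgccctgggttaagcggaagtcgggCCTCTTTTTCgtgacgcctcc
The run was 14 letters long at Rpl22, 13 at Rpl35a, 10 at Rps6, 9 at Rpl39 and Rps27l, 6 at Rpl36a and 5 at Rpl36al. It covered the start itself in Rps6 and, at the start shown, in Rpl35a. Another listed start of Rpl35a has the same run of 13 letters, beginning 37 bases before that start. The run lengths of the 4 genes shown that were lower with STEM overlapped those of the other 3.

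Depth was between 13285472 and 24536264 counts per library. The floor of 3 counts corresponded to 0.122 to 0.232 CPM per library, where CPM are counts scaled to a common library total. Horse serum library 6 stood apart from the other controls. Its summed myotube markers came to 6530 CPM, against 10717 to 11687 CPM in the other horse serum libraries and 9078 to 11249 CPM with STEM. Its summed markers of undifferentiated or cycling myoblasts came to 863 CPM, against 539 to 786 CPM in the other controls and 428 to 498 CPM with STEM. These 5 markers did not move together in library 6. Mki67 (322 CPM) and Ccnb1 (114 CPM) were above every other control, and Top2a (386 CPM) was within their range. Pax7 (26.0 CPM) and Myf5 (15.9 CPM) were below every other control. With STEM 3 of the 5 markers (Mki67, Top2a and Myf5) were lower. Of the 8 myotube markers 1 was higher and 2 were lower with STEM. Among all genes tested, 18.9% were higher and 17.4% were lower with STEM. Macrophage markers summed to between 2.15 and 5.71 CPM with Adgre1 and Ptprc at the floor, the 3 adipocyte markers were at the floor, and the endothelial markers Pecam1 and Kdr were at the floor. The part of these markers in the results was not tested, and the main counts are given with and without library 6. In bulk samples fewer cells of a type and less RNA per cell cannot be told apart.

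The first question was whether STEM changed the level of the ribosomal protein messages. Changes were small, and their direction was mostly downward. Of 81 genes tested, 5 were lower with STEM (Rpl22, Rpl32, Rpl35a, Rpl36a and Rpl39, all of the 60S subunit) and 0 were higher, at an adjusted p of 0.05 or less (edgeR quasi-likelihood test, Benjamini-Hochberg over all genes tested). Among all 14175 genes 36.4% were called, 18.9% higher and 17.4% lower. At an unadjusted p of 0.05 or less, 13 ribosomal protein genes were lower and 2 were higher, where 21.8% of all genes were lower and 23.9% higher. DESeq2 called 6 lower, these 5 and Rpl3l, where it called 37.7% of all genes.

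The median log2 fold change of the 81 genes was -0.07, a change of -5.03%, and 66 of them had a value below 0. The median over all genes tested was 0.01, with 48.3% below 0. Without Rpl3l the values of the 80 genes ran from -0.24 to 0.17 with an SD of 0.08, beside a median standard error of 0.06 for a single gene, and 47 lay within 0.1 of 0. In 0 of the 81 genes were the 2 groups free of overlap, while this held for 17.2% of all genes.

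**Figure D1:**
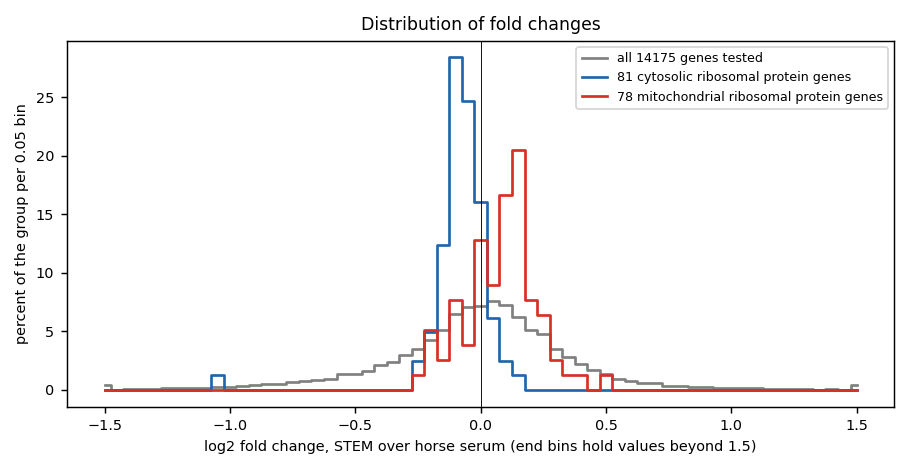
Share of genes (percent per bin of 0.05) at each log2 fold change of STEM over horse serum, for all 14175 genes tested, the 81 cytosolic and the 78 mitochondrial ribosomal protein genes. The cytosolic genes form a narrow peak below 0 (median -0.07), the mitochondrial genes one above 0 (median 0.11), and the single cytosolic gene near -1.06 is Rpl3l.

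Leaving out horse serum library 6 (as was done for each library in turn) changed the count more than any other single library did. Then 40 of 81 genes were called, 38 lower and 2 higher, against a background of 50.9% of all genes (26.3% higher and 24.6% lower). Over the 81 genes the median log2 fold change became -0.11, a change of -7.28%, and 71 values were below 0. Omitting horse serum library 1 moved the median the other way. Over the 80 genes without Rpl3l it was -0.07 with all libraries (65 values below 0). It was -0.05 without library 1 (58 below 0) and -0.10 without library 6 (70 below 0). Without STEM library 10 it was also -0.10 (73 below 0). The 5 genes called with all libraries were among the 40. The 2 higher genes were the paralogs Rpl7l1 and Rps27l. In scaled CPM, library 6 was the lowest control for 68 of the 80 genes and the lowest of all 12 libraries for 45. It was the lowest control for 33.1% of all genes. Omitting any other library left between 2 and 9 genes called, where 31.4% to 33.7% of all genes were.

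**Figure D2:**
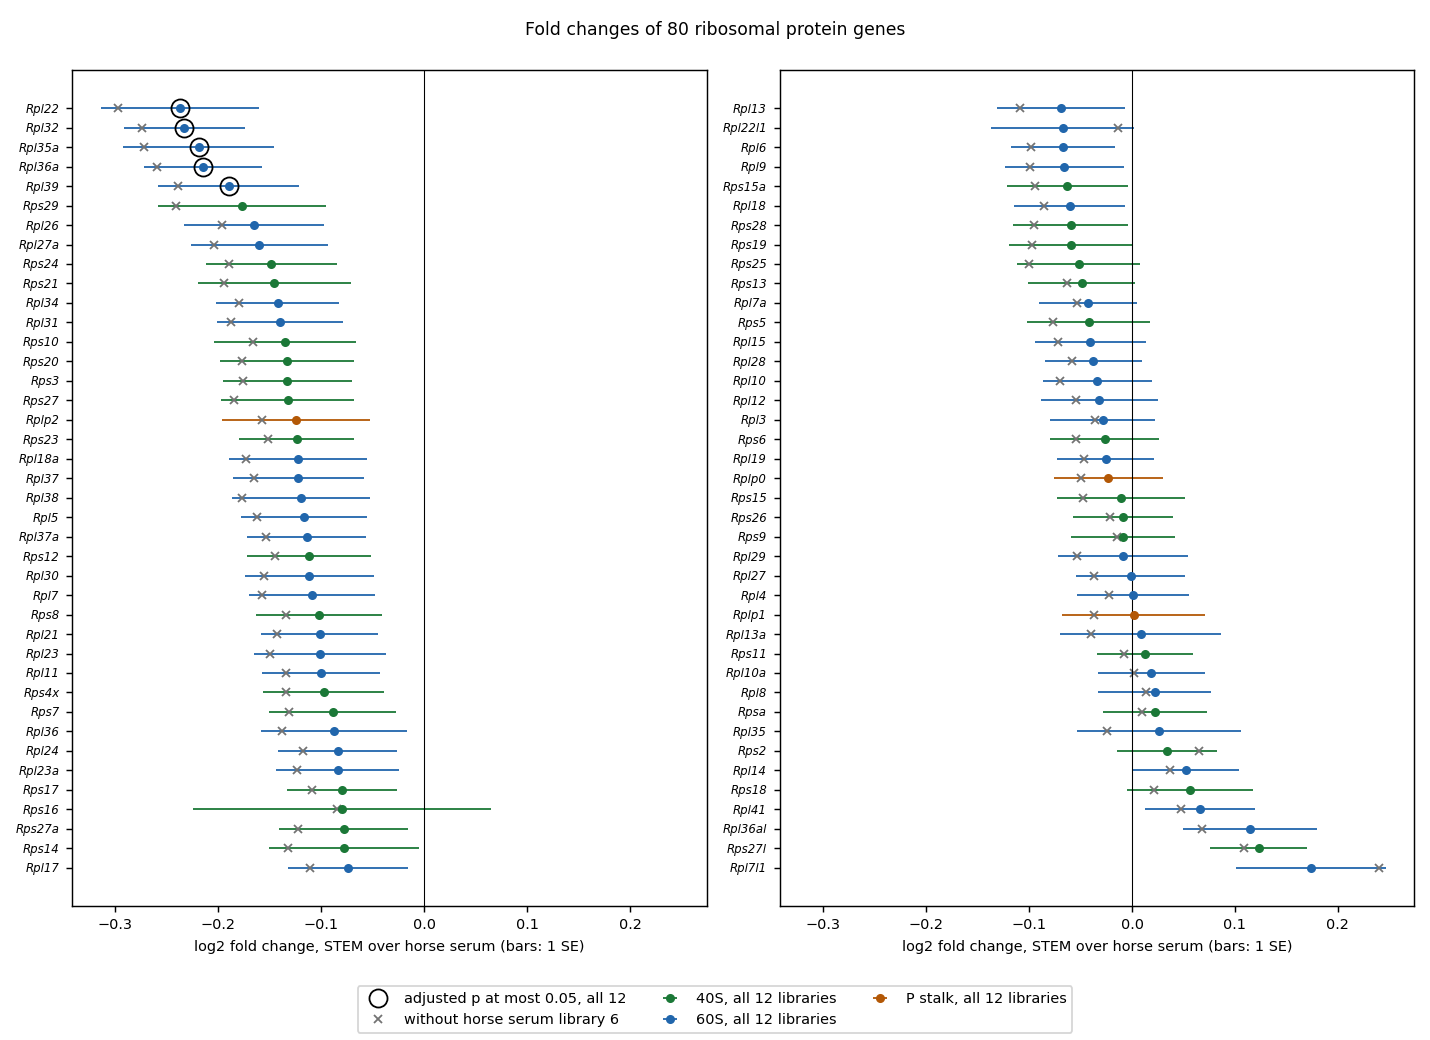
Log2 fold change of STEM over horse serum (points, with bars of 1 standard error) for 80 ribosomal protein genes ordered by value and coloured by subunit, from all 12 libraries. Rings mark the 5 genes called lower (-0.24 to -0.19), and grey crosses give the value without horse serum library 6, which lies to the left of the point for most genes and to the right for Rpl7l1 (0.24).

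With Rpl3l set apart, the lowest value belonged to Rpl22 (chromosome 4), an RNA-binding protein on the outer face of the 60S subunit. It measured 307 to 443 CPM in horse serum (median 402) and 298 to 351 CPM with STEM (median 341). The log2 fold change was -0.24 (SE 0.08, adjusted p = 0.0252). Horse serum library 6 was the 307, and the other 5 controls started at 375, above every STEM library.

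Rpl32 (chromosome 6), a core 60S protein, ran from 747 to 956 CPM in horse serum (median 877) and from 697 to 792 CPM with STEM (median 737). Its log2 fold change of -0.23 (SE 0.06) had the lowest p among the ribosomal protein genes (adjusted p = 0.00589). Only library 6 of the controls fell inside the STEM range. One small nucleolar RNA, Snora7a, lies within Rpl32.

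Rpl35a (chromosome 16) is mutated in some patients with Diamond-Blackfan anaemia, an inherited failure of red cell production caused by ribosomal protein genes. Levels were 387 to 558 CPM in horse serum (median 470) and 377 to 433 CPM with STEM (median 411), a log2 fold change of -0.22 (SE 0.07, adjusted p = 0.0295). The overlap between groups again came from library 6.

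Both remaining genes lie on the X chromosome. Rpl36a, which sits near the exit site for transfer RNA, measured 341 to 441 CPM in horse serum (median 411) and 335 to 360 CPM with STEM (median 355), with a log2 fold change of -0.21 (SE 0.06, adjusted p = 0.00865). Its STEM libraries were the closest together of the 5 genes, with an SD of 10.9 CPM. Rpl39, a very short protein that lines the exit tunnel of the growing chain, measured 375 to 497 CPM in horse serum (median 465) and 356 to 432 CPM with STEM (median 404). Its log2 fold change was -0.19 (SE 0.07, adjusted p = 0.0409). In each of the 5 genes every STEM library lay below the other 5 controls.

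**Figure D3:**
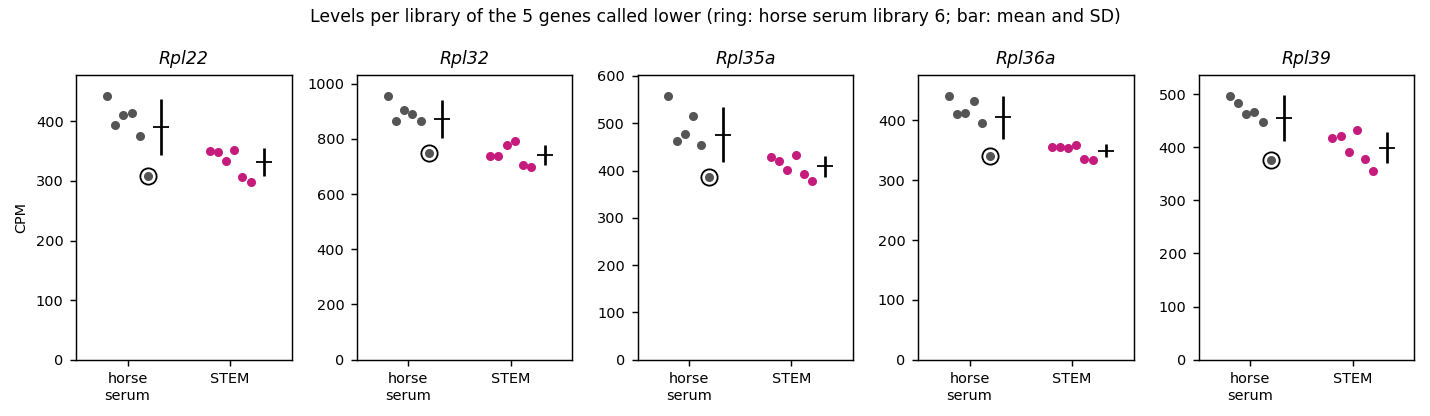
CPM in each library (points) of the 5 ribosomal protein genes called lower with STEM, with the mean and SD of 6 libraries per group beside them and a ring around horse serum library 6. The vertical axes start at 0, and the ringed library lies among the STEM libraries in every panel.

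Without library 6, every STEM library was lower than every control for 10 of the 81 genes, against 16.5% of all genes. Beside the 5 above these were Rpl7, Rpl21, Rpl31, Rpl38 and Rps27, named here after their values were seen. The calls of 3 of the 5 genes were near the threshold. Rpl22, Rpl35a and Rpl39 were not called without horse serum library 1, 3 or 4 or without STEM library 11 or 12, with adjusted p-values of at most 0.0924. Rpl39 was also not called without horse serum library 2 or 5 or STEM library 9, and Rpl35a without STEM library 9, while Rpl32 and Rpl36a were called whichever library was omitted.

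By subunit and leaving paralogs aside, 0 of 30 genes of the 40S subunit, 5 of 43 of the 60S subunit and 0 of the 3 P stalk genes were called with all libraries, all of them lower, where 17.4% of all genes were lower. The median log2 fold change was -0.08 for the 40S genes, -0.08 for the 60S genes and -0.02 for the P stalk genes. Without library 6, 15 of the 40S, 22 of the 60S and 0 of the P stalk genes were lower, and none of them was higher, where 24.6% of all genes were lower and 26.3% higher. The corresponding medians were -0.10, -0.12 and -0.05. The difference between subunits was not tested.

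The 40S genes with the lowest p beside the paralog Rps27l were Rps23 and Rps24. Rps23, which sits at the decoding centre, measured 753 to 918 CPM in horse serum and 730 to 851 CPM with STEM (log2 fold change -0.12, SE 0.06, adjusted p = 0.0951). Rps24, a further gene of Diamond-Blackfan anaemia, had a log2 fold change of -0.15 (SE 0.06, adjusted p = 0.0796). Both passed the test without library 6, at adjusted p-values of 0.0123 and 0.00395. They also passed it without STEM library 10, at adjusted p-values of 0.0362 and 0.0344.

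Rps6, the substrate of the S6 kinases downstream of mTORC1, measured 653 to 796 CPM in horse serum and 687 to 765 CPM with STEM, and its log2 fold change was -0.03 (SE 0.05, adjusted p = 0.724). The groups overlapped throughout. Rpsa, the scaffold protein also known as a laminin receptor, had a log2 fold change of 0.02 (SE 0.05, adjusted p = 0.757). Rps27a, which is made as a fusion with ubiquitin, had -0.08 (SE 0.06, adjusted p = 0.347).

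Rpl5, Rpl11 and Rpl23 can bind MDM2 when they are not in a ribosome, and thereby raise p53. Their log2 fold changes were -0.12 (SE 0.06), -0.10 (SE 0.06) and -0.10 (SE 0.06), with adjusted p-values of 0.15, 0.188 and 0.232. Each was lower in the fit without library 6, with adjusted p-values of 0.00506, 0.0232 and 0.0101. Rpl13a, which can leave the ribosome to silence inflammatory messages, had a log2 fold change of 0.01 (SE 0.08, adjusted p = 0.946).

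The P stalk recruits the elongation factors to the ribosome, with Rplp0 as its base and Rplp1 and Rplp2 as its arms. Rplp0 measured 1966 to 2369 CPM in horse serum and 2026 to 2286 CPM with STEM (log2 fold change -0.02, SE 0.05, adjusted p = 0.76). Rplp1 had a log2 fold change of 0.00 (SE 0.07, adjusted p = 0.99) and Rplp2 of -0.12 (SE 0.07, adjusted p = 0.191). The stalk genes overlapped between groups. Of the ribosomal proteins listed under other symbols and so outside the rule, Rps3a1 (-0.03), Fau (-0.05) and Rack1 (-0.07) were not called.

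The next question was whether single genes moved away from the rest of the ribosome. In a second edgeR fit each library was scaled to the summed counts of the ribosomal protein genes. In that fit 4 genes were lower and 4 higher relative to their own sum, where 31.1% of all genes were called (11.7% lower and 19.4% higher). Rpl22 (-0.17), Rpl32 (-0.17), Rpl35a (-0.15) and Rpl36a (-0.15) were lower on the log2 scale. Higher were the paralogs Rps27l (0.18, SE 0.05, adjusted p = 0.0131) and Rpl36al (0.18, SE 0.05, adjusted p = 0.0141), as well as Rpl41 (0.13), which encodes an exceptionally short basic peptide, and Rps18 (0.12). The last was named after its value was seen. Without library 6 the fit called 18 genes, 9 in each direction, against 50% of all genes (34.3% higher and 15.7% lower). The calls of this fit depended on the setting. With no filter on low counts 0 genes were called, DESeq2 called 14, and omitting any 1 of 9 libraries other than library 6 left 4 or 5.

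The summed share of counts held by the 83 genes was 5.45% ± 0.22 (SD, n = 6) in horse serum and 5.30% ± 0.27 (SD, n = 6) with STEM. Single libraries ran from 5.22% to 5.82% and from 5.03% to 5.77%. The difference of -0.15 percentage points was smaller than either SD.

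The level of the whole set varied from library to library. Taking each gene's deviation from its own mean on the log2 CPM scale, the median over the 80 genes was lowest in horse serum library 6 (-0.15) and highest in horse serum library 1 (0.16). Within the STEM group it ran from -0.10 in library 12 to 0.09 in library 10. The scaling factor behind these CPM was 1.07 for horse serum library 6 and 0.97 to 1.02 for the others. As a share of raw counts the ribosomal protein genes held 5.22% in that library, above STEM libraries 7 (5.17%), 11 (5.14%) and 12 (5.03%). Most of the 80 genes moved together across the 12 libraries. Within a library all genes share the normalization and the depth. The median Pearson r of a gene with the median of the others was 0.88 over 12 libraries, and 60 of 80 had an r of at least 0.8. Removing each library's median lowered the median SD of a gene from 0.11 to 0.05.

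A few genes had a low r, and they are named here after their values were seen. The paralog Rpl7l1 had an r of -0.56, Rps2 -0.25, Rpl22l1 0.03, Rps16 0.09 and Rps27l 0.19. With each group's mean removed, the r of Rps27l was 0.62 and that of Rpl7l1 -0.45. Rps16, a 40S protein near the decoding site, had the widest spread, from 137 to 239 CPM in horse serum and from 119 to 209 CPM with STEM. Its log2 fold change of -0.08 had an SE of 0.14.

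**Figure D4:**
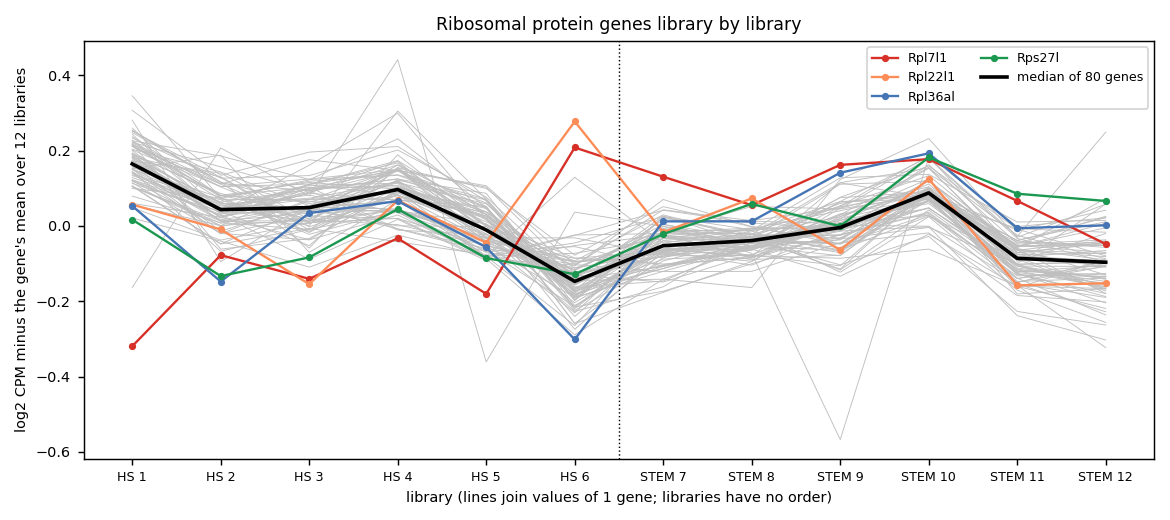
Log2 CPM of each of the 80 genes minus its own mean, in each library, with 4 paralogs in colour and the median of the 80 genes in black. The median dips in horse serum (HS) library 6 (-0.15) and peaks in horse serum library 1 (0.16), and Rpl7l1 and Rpl22l1 lie above their own mean in library 6, where 76 of the 80 genes lie below it.

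Of the 83 genes 7 were paralogs, later copies that can replace a ribosomal protein or have taken up other roles. Rpl10l and Rpl39l, both known from the testis, were not tested. Rpl10l had 0 counts in every library, which allows up to 0.232 CPM in the shallowest one, and Rpl39l had 1 count in horse serum library 4.

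Rpl3l (chromosome 17, 24727820 to 24736143, plus strand) replaces the closely related Rpl3 in ribosomes of heart and skeletal muscle. It was at the bottom of the measured range, with 5 to 55 counts per library in horse serum and 5 to 33 with STEM, or 2.28 ± 1.22 (SD, n = 6) against 1.06 ± 0.54 CPM (SD, n = 6). The ranges overlapped. The log2 fold change was -1.06 (SE 0.47, adjusted p = 0.0973), and without library 6, which held 5 counts, it was -1.32 (adjusted p = 0.00181). DESeq2 gave -1.11 with an adjusted p of 0.049. Rpl3l held 0.224% of the Rpl3 pair's counts in horse serum and 0.109% with STEM.

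A paralog and its partner can be compared within a library, without normalization. Their log2 count ratio was compared between groups for 5 pairs by a two-sided exact permutation test, with p-values adjusted over the 5, where 0.00216 is the smallest p that 6 against 6 libraries allow. The clearest difference was that of Rpl36al over Rpl36a. The ratio ran from -2.79 to -2.62 in horse serum and from -2.43 to -2.26 with STEM, and all 6 STEM libraries lay above every control. The difference was 0.33, larger than the SD of either group (0.06 and 0.07, n = 6; exact permutation p = 0.00216, adjusted p = 0.0108). Rpl36al thus held 13.5% of the pair's counts in horse serum and 16.4% with STEM, and the difference was 0.33 also without library 6. Rpl36al alone was not called, with a log2 fold change of 0.11 (SE 0.06, edgeR adjusted p = 0.183). Without library 6 it was 0.07 (edgeR adjusted p = 0.282). Its partner Rpl36a, called lower, had -0.21 with all libraries and -0.26 without library 6.

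Rps27l, which p53 can induce, stood in a ratio to Rps27 of -2.03 to -1.72 in horse serum and of -1.82 to -1.58 with STEM. The difference was 0.25 (exact permutation p = 0.00866, adjusted p = 0.0216), and 3 of 6 STEM libraries lay above every control. For Rps27l alone the levels were 112 to 126 CPM against 121 to 139 CPM, a log2 fold change of 0.12 (SE 0.05, adjusted p = 0.053). The gene passed the test under 5 other settings and did not under the rest, DESeq2 and limma-voom among them. The 5 were total counts, offsets for transcript length and GC content (0.22, adjusted p = 0.00166), and omission of horse serum library 1, 4 or 6.

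Rpl7l1, a nucleolar relative of Rpl7 that acts in making the 60S subunit, measured 84.6 to 122 CPM in horse serum and 102 to 119 CPM with STEM (log2 fold change 0.17, SE 0.07, adjusted p = 0.0756). Its 122 was library 6, and without that library the log2 fold change was 0.24 (adjusted p = 0.000657). The ratio to Rpl7 differed by 0.29 (exact permutation p = 0.0433, adjusted p = 0.0722). Rpl22l1, which Rpl22 is known to hold down, measured 75.6 to 102 CPM in horse serum and 75.5 to 91.8 CPM with STEM (log2 fold change -0.07, SE 0.07, adjusted p = 0.478). Its ratio to Rpl22 differed by 0.17 (exact permutation p = 0.21, adjusted p = 0.21).

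The ratio of Rpl3l to Rpl3 differed by -0.90 (exact permutation p = 0.208, adjusted p = 0.21), with overlapping groups. Without library 6 all 5 ratios passed the test. That library was itself an outlier in the ratios of Rpl3l, Rpl7l1 and Rpl22l1, so its removal was not independent of the values tested. For all pairs but Rpl3l the exact permutation p was 0.00216, the smallest that 6 against 5 libraries allow. The difference was -1.43 for Rpl3l over Rpl3 (adjusted exact permutation p = 0.013), 0.40 for Rpl7l1, 0.28 for Rpl22l1, 0.33 for Rpl36al and 0.29 for Rps27l (adjusted exact permutation p = 0.00271 for each of the last 4). Partner transcripts were not near-identical. The best alignment of Rpl36al with Rpl36a matched at 87.7% of 332 bases, and that of Rpl3l with Rpl3 at 74.4% of 1189 bases. How reads matching both genes were counted is not given in the sources used here.

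**Figure D5:**
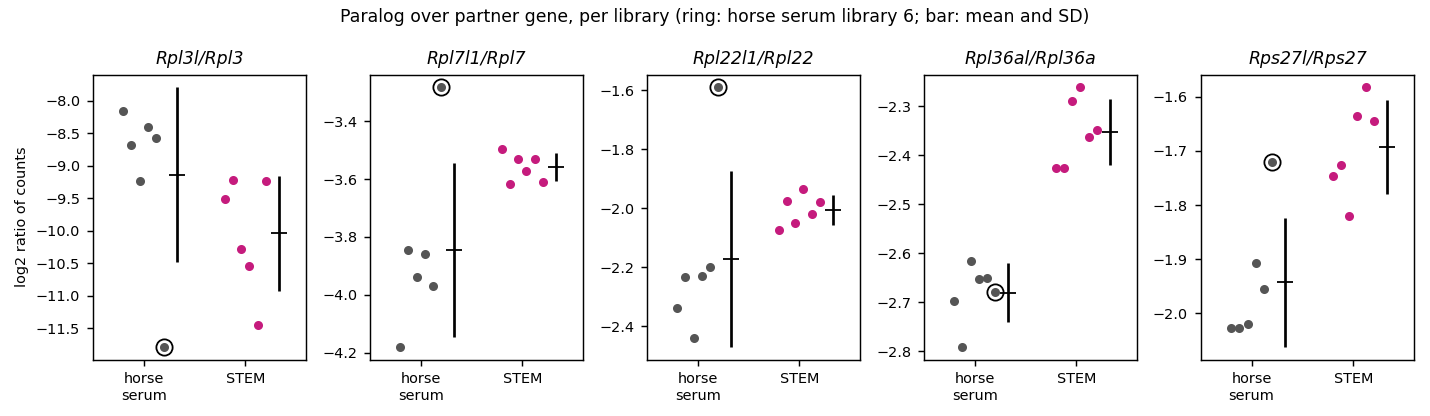
Log2 ratio of paralog to partner counts in each library (points) for 5 pairs, with the mean and SD of 6 libraries per group and a ring around horse serum library 6. Rpl36al over Rpl36a separates the groups completely (at most -2.62 against at least -2.43), while in the other 4 panels the ringed library lies outside the range of the other controls.

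Levels between genes are compared per length, as CPM per kilobase (RPKM, over the union of exons, mean of 12 libraries). The median over the 80 genes was 300.2 RPKM. The 3 highest were Rplp1 (2350), Rplp0 (1294) and Rpl41 (1137), and the 3 lowest were Rpl26 (47.5), Rpl22l1 (42.5) and Rpl7l1 (30.4). These values depended on the length used, and with the principal transcript the median was 742 and Rpl26 stood at 113. In CPM the median gene reached 620, above 98.7% of all genes tested.

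Rpl26 is a special case, because many ribosomal protein genes have processed copies elsewhere in the genome. Of the 81 genes tested, 76 had at least 1 annotated pseudogene that matched their transcript at 95% or more over at least 150 bases, with a median of 5, a total of 611 and up to 61 (Rpl21). The copies held 4.07% of all counts of genes and copies together, but 86.3% for Rpl26, 37.0% for Rps2 and 35.0% for Rpl29. For 69 genes the share was under 5%, and for the 5 genes called lower it was at most 1.74%. Rpl26 itself had a log2 fold change of -0.17 (SE 0.07, adjusted p = 0.0695). Adding the counts at copies to their gene, an alternative chosen after seeing the data, again gave 5 genes lower and 0 higher, the same genes, where 36.7% of all genes were called. Without library 6 it gave 41 lower and 1 higher, where 51.7% were called.

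The ribosomal protein genes tested without Rpl3l had a median GC content of 50.9%, against 49.5% for all genes, and a median principal transcript of 882 bases against 3032. Small nucleolar RNAs lay within 29 of the 83 genes, 56 in all. Across the 80 genes the log2 fold change had a Spearman correlation of 0.22 with GC content, and across all genes 0.13. With offsets for length and GC content the count was 12 genes, 11 lower and 1 higher (Rps27l), where 37.2% of all genes were called, and the 5 genes were among them.

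Lists of genes around the ribosome were read from the same fit, and their difference from the ribosomal protein genes was not tested. Other messages known to begin with a TOP motif, most of them of the translation machinery, numbered 27, and 5 of them were higher and 2 lower (median log2 fold change 0.00, all genes 0.01), where 36.4% of all genes were called. Vim, an intermediate filament gene on this list, was lower (-0.54, adjusted p = 7.84e-06), as was the initiation factor Eif4b (-0.18, adjusted p = 0.00452). Pabpc4, which binds poly(A) tails, was higher (0.18, adjusted p = 0.00418). Without library 6, 6 were higher and 6 lower, where 50.9% of all genes were called.

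Of the 78 mitochondrial ribosomal protein genes, which serve the separate ribosome of that organelle, 20 were higher and 5 were lower, and their median log2 fold change was 0.11. Mrpl20 measured 41.1 to 47.6 CPM in horse serum and 51.1 to 59.4 CPM with STEM (0.35, SE 0.05, adjusted p = 0.000163), and Mrps18b (0.51, adjusted p = 0.000424) and Mrpl17 (0.27, adjusted p = 0.000925) were also higher. The share called, 25 of 78, was near the 36.4% of all genes. The split was 15 higher and 7 lower with upper quartile normalization, where 36% of all genes were called. Without library 6 it was 26 higher and 11 lower, where 50.9% of all genes were called (26.3% higher and 24.6% lower).

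Of 34 tested regulators that act on ribosomal protein translation through mTORC1 and LARP1, 12 were higher and 5 were lower (median log2 fold change 0.09), and without library 6 the counts were 13 and 6. Of all genes 36.4% were called (18.9% higher and 17.4% lower), and 50.9% without library 6. Sesn1 and Sesn2, relatives that restrain mTORC1, went in opposite directions. Sesn1 was lower, at 67.5 to 80.4 CPM in horse serum and 38.5 to 48.0 CPM with STEM (-0.75, SE 0.06, adjusted p = 4.69e-07), and Sesn2 was higher, at 11.8 to 16.7 CPM and 21.2 to 26.0 CPM (0.66, SE 0.08, adjusted p = 2.55e-05). Pdcd4, an inhibitor of the helicase eIF4A, was lower (-0.48, adjusted p = 3.39e-05). Named after their values were seen, Larp1 (0.38, adjusted p = 0.00661), the S6 kinase gene Rps6kb1 (0.24) and Mtor (0.16) were higher.

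Of 11 chaperones and importers that escort single ribosomal proteins to the nucleus or the new subunit, 4 were higher and 0 were lower (median log2 fold change -0.01), and without library 6 the counts were 4 and 2. The 4 of 11 equalled the share of all genes called, 36.4%. Without library 6, 50.9% of all genes were called. Heatr3, which serves Rpl5, measured 70.9 to 108 CPM in horse serum and 123 to 136 CPM with STEM (0.64, SE 0.08, adjusted p = 2.56e-05). Grwd1, which serves Rpl3, was higher (0.64, adjusted p = 0.00076), as was Bccip, which serves Rpl23 (0.25, adjusted p = 0.00565). The fourth was Tsr2, which serves Rps26 (0.25), named after its value was seen. Rpl3, Rpl5, Rpl23 and Rps26 had log2 fold changes of -0.03, -0.12, -0.10 and -0.01 and were not called.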

How the data were processed

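RNA of C2C12 myotubes was sequenced by the authors in 12 libraries, strand-specific and made from total RNA after removal of ribosomal RNA. The deposited values are raw counts of reads per Ensembl gene on GRCm38, with no normalization. The submitters' processing notes name STAR 2.7.3a, featureCounts 1.6.3 and DESeq2 1.26.0, and the strand and multiple-mapping settings are not given in the sources used here.

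Counts were tested here with edgeR 4.0.16 in R 4.3.3 (TMM, filterByExpr, glmQLFit robust, glmQLFTest), with Benjamini-Hochberg adjustment over 14175 genes and a threshold of 0.05. CPM used TMM library sizes. Log2 ratios used a pseudocount of 0.5 counts and log2 CPM a prior count of 2. Fits of DESeq2 1.42.0 and limma 3.58.1 were alternatives, and scripts were tested on simulated data. Symbols came from GENCODE M21, which held 55227 of the listed genes, and genes outside it had 0.00268% of counts. Pseudogene copies were found with blastn 2.17.0. No 2 libraries of a group agreed within sampling noise (chi-square per degree of freedom of at least 3.29 over 30 pairs). Floors cover counting error only.

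The rule for the genes uses annotation only, but the topic, lists and named genes were chosen with earlier results of these data known. Named genes are the paralogs, P stalk genes, Rpsa, Rps27a, Rpl5, Rpl11, Rpl23, Rpl22, Rps6, Rpl13a, called genes, the 3 lowest p-values per subunit, the 3 highest and lowest levels, ribosomal proteins under other symbols (1 gene is not reported here), and the 3 lowest p-values among the called genes of each other list.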

Additional observations from a re-analysis of the deposited data

Results flagged for a closer look

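In 8 of 92 groups of 6 libraries examined, 1 library lay farther from the others than Dixon's critical value allows, where chance flags about 1 group in 20. All 8 were horse serum library 6 among the controls. Its log2 ratio was -11.78 for Rpl3l over Rpl3, -3.28 for Rpl7l1 over Rpl7 and -1.59 for Rpl22l1 over Rpl22, the first below and the others above the remaining controls. It was low for Rps3a1 (385 CPM) and high for the mitochondrial ribosomal protein genes Mrpl20 (47.6 CPM) and Mrps18b (21.1 CPM) and the chaperones Heatr3 (108 CPM) and Grwd1 (16.7 CPM).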

How the results depend on the processing

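No paired analysis was possible because the replicate numbers run from 1 to 6 in one group and from 7 to 12 in the other, so that no number is shared. The 5 genes called lower were also called, with 0 lost, under DESeq2 size factors, upper quartile or total count scaling, TMM without the ribosomal protein genes, both other filters, DESeq2, limma-voom and the offsets. Total counts added 1 higher gene and DESeq2 1 lower gene (Rpl3l). The count was 12 with offsets for length and GC content, 2 at an adjusted p of 0.01, and 2 to 40 when 1 library was omitted. Of all genes 37.2%, 23% and 31.4% to 50.9% were called under these settings. Chosen after seeing the data, leaving out library 6 gave 39 genes with the offsets, 26 with total counts (3 higher, 23 lower) and 42 with pseudogene counts added, of 81. Those 3 fits called 51.2%, 52% and 51.7% of all genes. The fit relative to the genes' own sum called 0 genes with no filter on low counts, 14 with DESeq2 (5 higher, 9 lower), 1 at an adjusted p of 0.01 and 4 to 18 when 1 library was omitted. Of all genes it called 31.1% with the main settings and 50% without library 6. The 0 stands beside a fit of 29620 genes; the cause was not tested. At an adjusted p of 0.01, 4 TOP genes and 12 mitochondrial ribosomal protein genes were called, and with 1 library omitted the TOP count ran from 6 to 12 and the mitochondrial count from 19 to 37, both highest without library 6. The shares of all genes were again 23% and 31.4% to 50.9%. TOP calls split into 4 higher and 3 lower under DESeq2 size factors and upper quartile scaling. With 1 library omitted, the ratio difference ran from -1.43 to -0.62 for Rpl3l over Rpl3, from 0.22 to 0.40 for Rpl7l1, from 0.11 to 0.28 for Rpl22l1, from 0.31 to 0.34 for Rpl36al and from 0.23 to 0.29 for Rps27l. The median level was 564 RPKM with the longest transcript and 742 with the principal one.

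Values near 0 that never passed the test changed sign. Rplp1 was -0.0033 with DESeq2 size factors and -0.0033 with DESeq2's test, -0.019 with upper quartile scaling, -0.0043 with no filter, -0.0088 with at least 10 counts in every library, and -0.037 to 0.048 with 1 library omitted. Rpl13a was -0.012 with upper quartile scaling, -0.0019 with at least 10 counts, -0.010 with the offsets and -0.040 to 0.071 with 1 library omitted. Rps3a1 was 0.015 with the offsets. With 1 library omitted Rplp0 ran from -0.049 to 0.0045, Rps6 from -0.055 to 0.0022, Fau from -0.11 to 0.0020 and Rpsa from -0.0030 to 0.049. The scaling moved the median of all genes by less than 0.1. Depth limited mainly Rpl3l, Rpl10l and Rpl39l.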
